A study of Mus musculus domesticus with 12 samples.

Results

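The 12 libraries of a knockdown experiment in mouse erythroid precursors were ranked by the level of Bnip3, and classes chosen by that level, the 6 highest and the 6 lowest, were set against each other, whatever short hairpin RNA (shRNA) the cells carried. All 12 libraries therefore belong to one or the other class, called high-Bnip3 and low-Bnip3 here. The cells came from livers of C57BL/6J embryos at E14.5. They were depleted of lineage-marked cells, infected with a retrovirus and grown for 2 days in medium for erythroid expansion, then sorted as GFP+ CD71int/+ Ter119- cells, a gate that spans erythroid progenitors and proerythroblasts. The shRNA was directed at luciferase (shLuc, the control), at Dis3 (shDis3) or at Exosc10 (shExosc10), with 4 libraries of each. Dis3 and Exosc10 are the ribonucleases of the RNA exosome, a complex that trims and degrades RNA. Whether the 4 libraries of a shRNA stem from different cultures or embryos is not stated in the labels, so the p-values reflect just the spread among libraries, which may be technical. They give no oxygen level, and say nothing of a batch or a day.

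When oxygen is scarce, the prolyl hydroxylases encoded by the Egln genes no longer mark the HIF alpha subunits for destruction, and HIF with its partner Arnt switches on genes for glucose uptake, glycolysis, vessel growth and removal of mitochondria. Bnip3 is a classical HIF target that sits in the outer mitochondrial membrane and recruits the autophagy machinery. In red cell development its relative Bnip3l clears mitochondria from the maturing cell. HIF target genes can also rise by other routes than low oxygen.

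Bnip3 (ENSMUSG00000078566, GRCm38 chromosome 7, 138890836 to 138909519) stood at 138, 132, 120.5, 119.6, 85.0 and 76.1 TPM (a length-corrected level relative to all transcripts) in shExosc10 replicate 3, shLuc replicates 2 and 3, shExosc10 replicates 4 and 2, and shLuc replicate 1. It stood at 32.4, 23.5, 21.8, 19.6, 18.2 and 16.8 TPM in shDis3 replicate 3, shLuc replicate 4, shDis3 replicates 1 and 4, shExosc10 replicate 1 and shDis3 replicate 2. The values on either side of the boundary were therefore 76.1 TPM just inside the high class and 32.4 TPM just outside it. These levels chose the classes and are given without a test, as is every difference between the classes below.

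The label speaks of hypoxia, and the other marker genes named with it were read in the same libraries. Ankrd37, a HIF target with ankyrin repeats (ENSMUSG00000050914, chromosome 8, 45996902 to 46005707), ran from 18.1 to 39.3 TPM in the high-Bnip3 libraries and from 2.16 to 4.09 TPM in the low ones. Aldoc, aldolase C of glycolysis (ENSMUSG00000017390, chromosome 11, 78322968 to 78327781), ran from 3.58 to 8.01 TPM and from 0.29 to 0.81 TPM. Neither gene's ranges overlapped. Ranking the libraries by Ankrd37, by Aldoc or by the mean of the hypoxia response genes other than Bnip3 put 12 of 12 libraries in the same class. That list still holds Ankrd37 and Aldoc. The classes and the list were chosen with earlier results of these data known, so this agreement is no independent evidence about the classes.

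**Figure D1:**
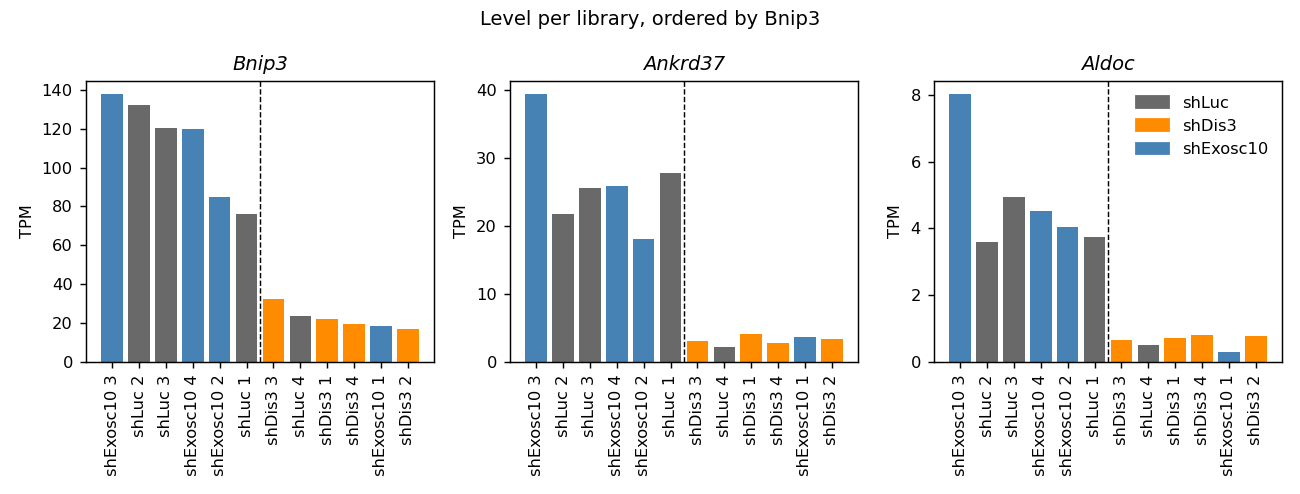
Level in TPM (vertical axis, linear from 0) of Bnip3, Ankrd37 and Aldoc in each of the 12 libraries, 1 bar a library, ordered from the highest to the lowest Bnip3. Bars are coloured by shRNA and the dashed line divides the 6 high-Bnip3 from the 6 low-Bnip3 libraries; 0 of the 4 shDis3 libraries stand to its left.

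The classes and the shRNA groups were not independent. The high class held 3 shLuc, 3 shExosc10 and 0 shDis3 libraries, and the low class held 1 shLuc, 1 shExosc10 and 4 shDis3 libraries. Only shLuc and shExosc10 therefore have libraries in both classes, and a difference between classes within a shRNA group rests on 1 low library each time: shLuc replicate 4 and shExosc10 replicate 1. A gene that differs between the classes also tends to differ between shDis3 and shLuc, since those comparisons use many of the same libraries.

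Library totals ran from 14936178 to 32397192 counts. Gata1 and Klf1, the erythroid master regulators, were detected in all libraries, at 75.2 to 134 and 78.0 to 199 CPM (counts relative to the library's total, scaled by TMM factors). Of genes that define other cell types, Ly6g of mature neutrophils and C1qa of resident macrophages were at 0 in 10 of 12 libraries, and Cd3e of T cells in 7. Other myeloid genes were present in every library: Mpo at 575 to 3869 CPM, Elane at 83.4 to 375, S100a8 at 36.96 to 260.0, S100a9 at 44.4 to 273, Csf1r at 2.83 to 19.0 and Cd68 at 1.74 to 5.90 CPM. The levels of this check were scaled before the filter on low counts, and so differ somewhat from those given below. The library shDis3 replicate 2 stood apart, with the fewest counts and the highest summed level of olfactory receptor genes, which these cells are not known to use, at 602 CPM. That sum ran from 34.4 to 328 CPM in the high-Bnip3 libraries and from 7.01 to 30.01 CPM in the other 5 low ones. The part of this signal in the results was not tested.

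Across all genes, 11 of 12 libraries had their highest correlation with a library of their own Bnip3 class, and 4 of 12 with one of their own shRNA. Over genes of at least 5 CPM these counts were 12 and 5. The closest pair was shLuc replicate 4 with shDis3 replicate 3 (Pearson r across genes 0.986), and shDis3 replicate 4 paired with shExosc10 replicate 1 (0.981). Genes are not independent replicates, so these are descriptions. The exception over all genes was shDis3 replicate 2, which was closest to shLuc replicate 2 (0.963), the library with the second highest olfactory sum. The first principal component, the axis along which the libraries differed most, held 54.8% of the variance and did not divide the classes. It placed shDis3 replicate 2 at 129.19, beyond the highest high-Bnip3 library, shLuc replicate 2, at 95.78. The high library shLuc replicate 1 was at -39.26, near the low library shDis3 replicate 1 at -48.33. What this axis follows was not tested.

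A gene was counted as separating the classes when its lowest library in one class exceeded its highest in the other and the class means differed at least 2-fold. Of 17650 genes that passed the filter on low counts, 161 (0.912%) were higher and 463 (2.62%) lower in the high-Bnip3 libraries, 624 (3.54%) in all. Without the 2-fold condition, the ranges of 965 genes (5.47%) did not overlap. Among the lower ones 450 were protein-coding, and among the higher ones 131. The higher count depended on 1 library: without shDis3 replicate 2, 1004 genes were higher and 533 lower. On the scale of log2(TPM + 1), without TMM factors, 34 were higher. Ranges called apart below are those of CPM, and some of them overlapped on TPM. In the 9467 genes of at least 5 CPM, the counts were 102 (1.08%) and 277 (2.93%). Over all 17650 genes, 10156 (57.5%) had a higher mean in the high class, and the median difference was 0.10 on the log2 scale (0.13 within shLuc and 0.14 within shExosc10).

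The 15 most elevated genes of at least 5 CPM included Bnip3 and 4 more members of the hypoxia response list: Ankrd37, Aldoc, Ndrg1 and Bhlhe40. The largest difference was that of Ndufa4l2, a HIF-induced relative of a respiratory chain subunit. It had a lowest, median and highest level of 6.81, 9.88 and 18.3 CPM in the high class, and of 0.189, 0.356 and 0.999 CPM in the low class, a log2 difference of 4.39. Every high library was above every low one by several fold. Trib3, a pseudokinase induced by the stress factor ATF4, ran from 14.6 to 31.6 CPM with a median of 20.5, against 1.77 to 3.47 with a median of 2.35, a log2 difference of 3.10. Cdkn1c, the cyclin-dependent kinase inhibitor p57, ran from 5.10 to 19.8 CPM with a median of 12.2, against 0.333 to 1.73 with a median of 1.36, a log2 difference of 3.34. The classes did not overlap for either gene. The others were Col4a3 (a type IV collagen chain), Gipr (the receptor of an incretin hormone), Pmp22 (a myelin protein), Paqr9, Prelid2, Atp1b1 (a sodium pump subunit) and Peg10 (an imprinted gene of retrotransposon origin), with log2 differences of 2.40 to 3.27.

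Genes of early progenitors and of other blood lineages were among those at the opposite end. Cpa3, the carboxypeptidase of mast cells, ran from 3.28 to 9.34 CPM in the high class with a median of 4.76, and from 11.6 to 73.1 CPM in the low class with a median of 48.5, a log2 difference of -2.78. Cd34, the surface sialomucin of haematopoietic progenitors, was at 6.23 to 8.62 CPM in the high class, a narrow range, and at 28.3 to 64.5 CPM in the low class, a log2 difference of -2.58. For both genes the low class had the wider spread, and its lowest values were those of shDis3 replicates 1 and 2. Another 12 were Scin (an actin-severing protein), Klk8, Angpt1 (a ligand of the Tek receptor), BC035044, Pecam1 (an adhesion molecule of endothelium and platelets), Atp10a, Parp8, F2rl2 and Mmrn1 (a thrombin-cleaved receptor and a platelet protein), Tuba8, Tmem173 (the DNA sensing adaptor STING) and Cd69, with log2 differences of -2.67 to -2.12.

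**Figure D2:**
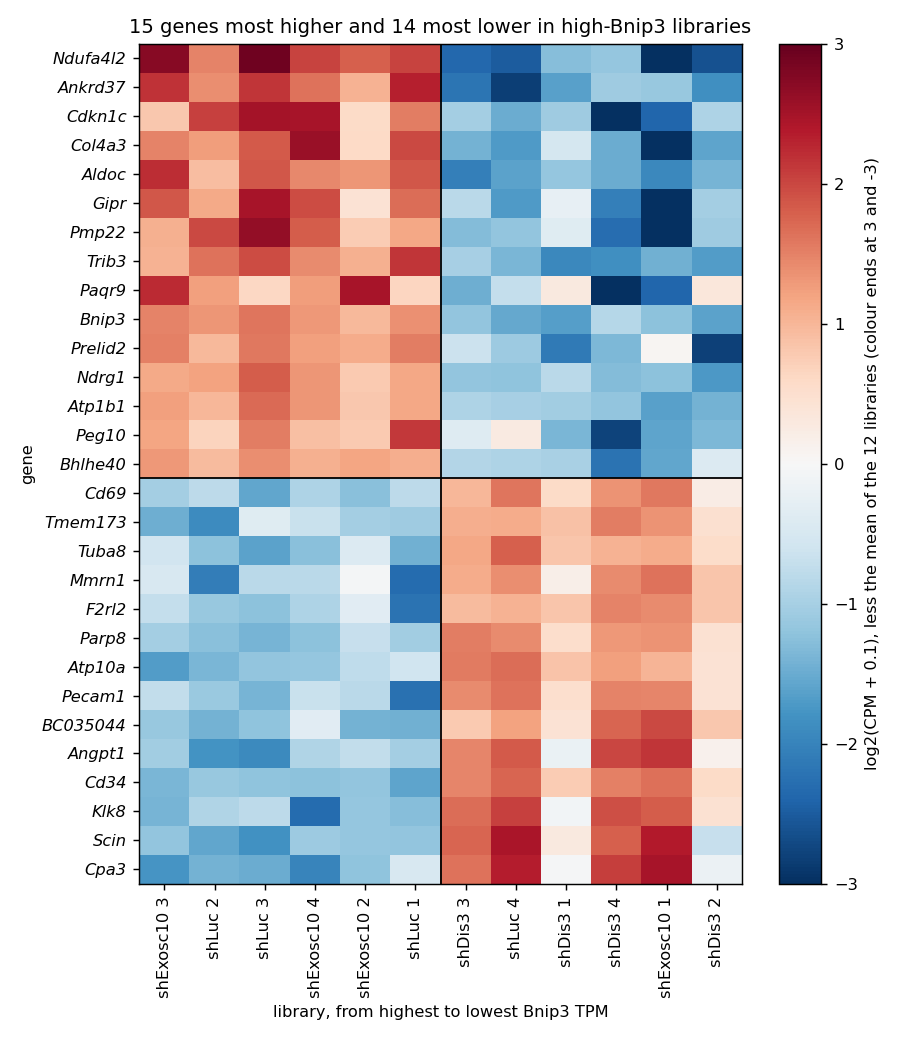
Each cell gives the log2(CPM + 0.1) of 1 gene in 1 library, less the gene's mean over the 12 libraries, for 15 genes most higher (above the horizontal line) and 14 of those most lower (below it) in high-Bnip3 libraries. Libraries run from the highest Bnip3 on the left to the lowest on the right, with the vertical line between the classes; for most genes below the line, shDis3 replicates 1 and 2 are paler than the other low libraries.

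Of the 45 genes in the hypoxia response list, 42 passed the filter, 35 had a higher mean in the high class (57.5% of all genes did), and 12 separated the classes, all upward (0.912% of all genes). The list holds the 3 markers, so its difference is no evidence independent of the ranking. The list median was 0.64 on the log2 scale, 0.73 within shLuc and 0.59 within shExosc10, beside 0.10 for all genes. Whatever the fold, ranges of CPM did not overlap for 19 members, all higher, beside 5.47% of all genes in either direction. Of these, 7 had a difference under 2-fold: Higd1a, Vegfa, P4ha1, Egln1, Kdm3a, Narf and Bnip3l, at 0.61 to 0.99. On TPM, the scale that ranked the libraries, the ranges of all 7 overlapped. Bnip3l, for example, was at 158.5 TPM in its lowest high library and at 189.0 TPM in its highest low one.

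Among the sensors, Egln3, a HIF prolyl hydroxylase that is itself a HIF target, ran from 118 to 153 CPM with a median of 137 in the high class and from 19.6 to 60.7 CPM with a median of 41.8 in the low class, a log2 difference of 1.82. The related Egln1 differed by 0.82, and Egln2 by -0.16. Of the subunits, Epas1, which encodes HIF-2 alpha, separated the classes at a low level, from 1.58 to 3.19 CPM against 0.0740 to 1.08 CPM. On TPM its ranges overlapped, with 0.15 in the lowest high library and 0.41 in the highest low one. Hif1a messenger RNA overlapped between the classes and was lower in the high class, with medians of 78.6 and 110.1 CPM. Arnt mRNA differed by 0.21 (-0.06 on log2 TPM), with ranges that overlapped. Hif3a differed by 0.04, a mean over opposite differences of -0.58 within shLuc and 1.20 within shExosc10, and its low libraries ran from 65.4 to 322 CPM. HIF-1 alpha is controlled mainly as a protein, which was not measured.

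The list holds 3 collagen hydroxylases, of which 2 separated the classes upward (0.912% of all genes did). P4ha1 differed by 0.90, with ranges that did not overlap on CPM. Plod2, a lysyl hydroxylase, ran from 23.8 to 48.8 CPM with a median of 33.2, against 7.21 to 11.6 CPM with a median of 8.70. P4ha2, a prolyl hydroxylase of collagen, ran from 9.19 to 21.4 CPM with a median of 12.2, against 1.71 to 7.03 CPM with a median of 2.06. Within the low class, P4ha2 was higher in shDis3 replicates 1 and 2, at 7.03 and 5.32 CPM, than in the other 4 libraries, at 1.71 to 2.08 CPM. Ndrg1, a stress-responsive gene, ran from 16.9 to 34.5 CPM against 2.87 to 5.49 CPM. Bhlhe40, a transcriptional repressor, ran from 17.8 to 24.2 CPM against 1.89 to 6.93 CPM. The remaining members that separated the classes were Selenbp1 at 1.72, Ak4, a mitochondrial adenylate kinase, at 1.39, and Stc2, a secreted glycoprotein, at 1.18. The ranges of Ak4 and Stc2 overlapped on TPM.

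Some textbook HIF targets had overlapping ranges. Slc2a1, a glucose transporter, differed by 0.68 but overlapped, at 110.0 to 199 CPM against 66.5 to 127 CPM. Ddit4, an inhibitor of mTOR signalling, differed by 1.01 and stood at 24.9 to 44.0 CPM in the high class, and in the low class at 47.4, 29.2 and 25.8 CPM in shDis3 replicates 1, 2 and 4 but at 9.75 CPM or less in the other 3. Hk2, hexokinase 2, differed by 0.40 but was highest of all in shLuc replicate 4, a low library, at 132 CPM. Car9, the tumour hypoxia marker, was at 1.67 CPM or less in every library and differed by -0.72.

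The glycolytic enzymes moved less. Of 21 measured, 16 had a higher mean in the high class, beside 57.5% of all genes. Only 1 separated the classes upward and 1 downward, beside 0.912% and 2.62% of all genes. The median difference was 0.46, with 0.45 within shLuc and 0.23 within shExosc10. The upward one was Slc16a3, the lactate exporter MCT4, at 97.7 to 167 CPM with a median of 121.0, against 19.8 to 64.7 CPM with a median of 43.0, a log2 difference of 1.57. The downward one was Ldhb, the lactate dehydrogenase subunit of oxidative tissues, at a low level and a log2 difference of -1.60. Whatever the fold, ranges of CPM did not overlap for 5 members upward and 1 downward, beside 5.47% of all genes in either direction. Among them Pfkp, Pfkl, Aldoa and Hk1 had differences of 0.64 to 0.93. On TPM the ranges of these genes overlapped. So did those of Slc16a3, at 43.86 TPM in its lowest high library and 52.23 TPM in its highest low one. Ldha, the subunit that favours lactate, overlapped, with medians of 932 and 676 CPM. Within shExosc10 its difference was 0.04, beside 0.64 within shLuc.

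The ATF4 and integrated stress targets had 28 of 33 members higher (57.5% of all genes were) and a median difference of 0.38. Of the members 4 separated the classes, all upward (0.912% of all genes did). Within shLuc the median was 0.34, and within shExosc10 it was 0.12, no higher than the 0.14 of all genes there. Beside Trib3, the separating members included Cth, the cystathionine lyase that makes cysteine, with a log2 difference of 2.97. The scores of the hypoxia, glycolysis and ATF4 lists, each the mean log2 CPM of the members less their means over all libraries, did not overlap between the classes. For hypoxia they ran from 0.32 to 0.64 and from -0.57 to -0.32. On log2(TPM + 1) the median of all genes of at least 5 CPM lay at -0.33, beside -0.04 here, and the medians of the hypoxia, glycolysis, ATF4 and red cell lists fell to 0.35, 0.08, 0.01 and 0.17. Relative to those overall medians they were 0.69, 0.41, 0.34 and 0.51 on that scale, beside 0.68, 0.49, 0.41 and 0.62 here. The scores of the cell cycle lists overlapped between the classes. The median difference was -0.03 for S phase genes and 0.06 for G2 and M phase genes (-0.29 on log2 TPM), with 0 of 40 genes separating the classes in each, beside 3.54% of all genes. In the G2 and M phase list 1 gene of 40, Nusap1, had ranges that did not overlap, beside 5.47% of all genes.

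Red cell genes were mostly higher in the high-Bnip3 libraries. Of 36 measured membrane and maturation genes, 31 had a higher mean (57.5% of all genes did), 3 separated the classes upward (0.912% of all genes) and the median difference was 0.59. The list scores overlapped, from -0.10 to 0.51 in the high class and from -0.64 to 0.29 in the low class. Tfrc, which encodes the CD71 of the sort gate, ran from 906 to 1413 CPM with a median of 1103, against 351 to 618 CPM with a median of 497. It did not overlap between the classes, and the libraries therefore also differed in the mRNA of a gate marker. Of 25 heme and iron genes 20 had a higher mean, with a median difference of 0.40, and the list scores overlapped between the classes.

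The stem and early progenitor list went the other way, with 24 of 31 members lower, 10 separating the classes (2.62% of all genes were separated downward) and a median of -1.13. Its member Kit, the stem cell factor receptor, was an exception, at 459 to 577 CPM in the high class and 260 to 413 CPM in the low class. On TPM the ranges of Kit overlapped, with 76.57 in the lowest high library and 100.6 in the highest low one. Of 30 megakaryocyte markers 27 were lower and 13 separated the classes, with a median of -1.24 (-1.67 within shLuc and -0.92 within shExosc10). Their summed level was 458 to 603 CPM in the high class and 861 to 1214 CPM in the low class, with 0 libraries at 0 for Pf4, Itga2b or Gp9. In bulk RNA, fewer cells of a type and less RNA per cell cannot be told apart.

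Most markers of myeloid cells had a lower mean in the high class. Of 25 granulocyte markers 16 were lower and 9 higher, 11 separated the classes downward (2.62% of all genes did), and the median was -0.96. The list scores overlapped, from -0.50 to 0.05 in the high class and from -0.29 to 1.04 in the low class. Mpo, the myeloperoxidase of early granulocytes, ran from 583 to 1109 CPM with a median of 844, against 1497 to 3746 CPM with a median of 2658. The list was mixed: Ngp, a neutrophil granule gene, stood at 20.9 to 61.9 CPM in the high class, and in the low class at 48.6 and 35.2 CPM in shDis3 replicates 1 and 2 but at 2.31 to 3.67 CPM in the other 4. Chil3 had the same pattern, with 25.4 and 23.0 CPM in those 2 libraries and 2.05 CPM or less in the other 4. Of 19 macrophage and monocyte markers, 6 separated the classes downward (2.62% of all genes did), and the list median was -1.38. The summed level of the 19 was 378 to 493 CPM against 459 to 595 CPM. Of 14 mast cell and basophil markers 12 were lower, with summed levels of 371 to 564 and 529 to 884 CPM.

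**Figure D3:**
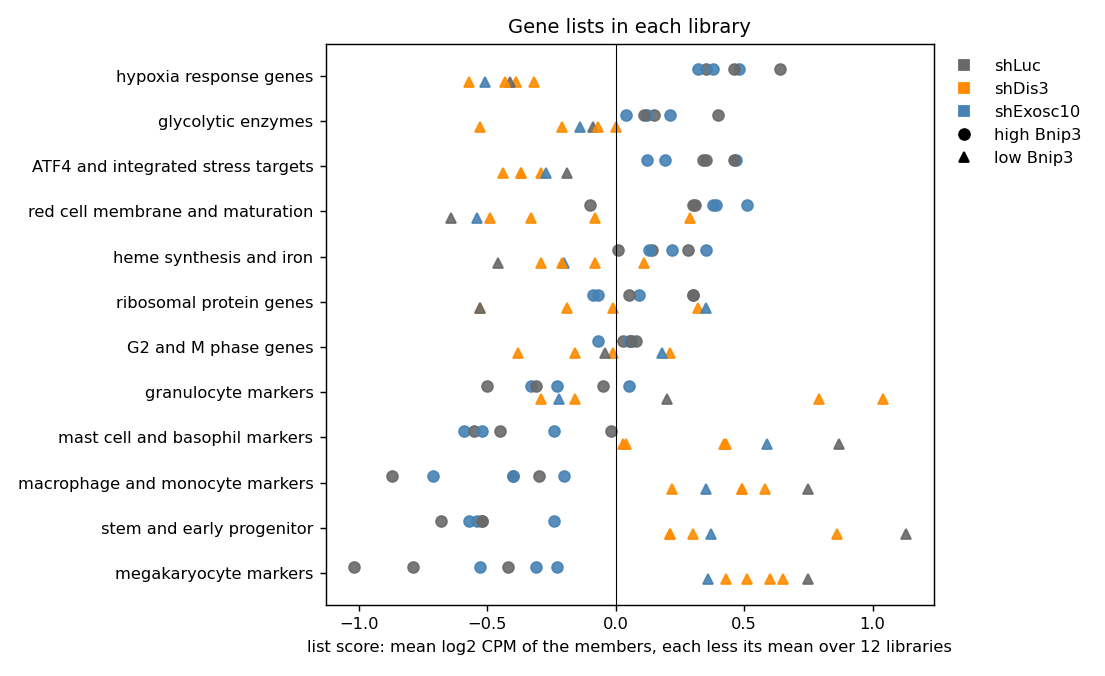
Score of 12 gene lists (horizontal axis, log2) in each library, 1 point a library; circles are high-Bnip3 and triangles low-Bnip3 libraries, coloured by shRNA. The scores of the hypoxia list (0.32 to 0.64 against -0.57 to -0.32) and of the megakaryocyte list (-1.02 to -0.23 against 0.36 to 0.75) do not overlap between the classes, and those of the G2 and M phase and ribosomal protein genes do.

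How much of each gene's variance the class and the shRNA held was compared by adjusted R2, the share of variance a term accounts for after allowing for its number of levels; it falls below 0 when a term accounts for less than its levels would by themselves. The median over all 17650 genes was 8.33% for the class alone, -6.07% for the shRNA alone and 9.34% for both, and the class exceeded the shRNA in 76.0% of genes. For the hypoxia list the medians were 51.8% and 16.5%, for megakaryocyte markers 56.6% and 17.5%, and for granulocyte markers 62.2% and 10.3%. These lists were described above as differing between the classes, so their values follow in part from the ranking. Some lists had the reverse order: cholesterol synthesis genes had 11.3% for the class and 28.9% for the shRNA, and p53 targets -3.71% and 9.20%, with 40.2% for both together.

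The targeted genes followed the shRNA and not the class. Dis3 was at 32.8, 24.7, 43.2 and 52.4 CPM in shDis3 replicates 1 to 4 and at 113 to 161 CPM in the shLuc libraries, with no overlap. Exosc10 was at 30.8, 25.8, 18.9 and 30.2 CPM in shExosc10 replicates 1 to 4 and at 85.4 to 113 CPM in the shLuc libraries. Both genes also had a lower mean in the high class within shLuc and within shExosc10. The log2 differences were -0.40 and -0.65 for Dis3 and -0.28 and -0.33 for Exosc10, each resting on 1 low library. With the shRNA as the only term, edgeR's quasi-likelihood test called 0 genes (0.0%) at a Benjamini-Hochberg adjusted p below 0.05 between shDis3 and shLuc. At an unadjusted p below 0.05 there were 719, while DESeq2 called 33 and limma on log2 TPM called 0. Dis3 itself, at a log2 fold change of -1.78 ± 0.24 (SE), missed the threshold (adjusted p = 0.0581 by edgeR). Between shExosc10 and shLuc 1 gene (0.00567%) was called, Exosc10 at -1.89 ± 0.21 (SE, adjusted p = 0.00502 by edgeR), and between shDis3 and shExosc10 2 genes (0.0113%), Exosc10 and Dis3.

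The shDis3 result turned on the 1 shLuc library of the low class. Without shLuc replicate 4, 146 genes were called by edgeR between shDis3 and shLuc, 105 of them higher and 41 lower in shDis3. That comparison sets 4 low-Bnip3 libraries against 3 high-Bnip3 ones, so that shRNA and class cannot be told apart in it.

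The test was repeated with the Bnip3 class as a further term. For shDis3, that fit takes the class difference from shLuc and shExosc10, and so rests on 2 low libraries. Dis3 then differed by -2.16 ± 0.26 on the log2 scale (SE, adjusted p = 0.00961 by edgeR) between shDis3 and shLuc, and was the 1 gene called (0.00567%). The list medians below are descriptions, since the class was cut on the level of a hypoxia gene. The median of the hypoxia list in shDis3 against shLuc was -0.57 without the class term and -0.04 with it, beside 0.02 and 0.06 for all genes. That of the megakaryocyte markers was 0.80 and 0.01, and that of the macrophage and monocyte markers 0.69 and -0.12. None of these lists had a member called in either fit (0 of 42, 0 of 30 and 0 of 19).

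The medians of some other lists lay no nearer to 0 with the class term. The p53 targets had a median of 0.55 between shDis3 and shLuc without the class term and of 0.74 with it, with 0 of 35 members called in either fit. The red cell genes went from -0.25 to 0.35, and the stem and early progenitor genes from 0.29 to -0.37, so that both changed sign. The globins, of which 5 were measured, went from 0.66 to 1.70. The olfactory receptor genes went from 0.08 to 5.74, and shDis3 replicate 2 is the library with their highest sum. In shExosc10 against shLuc, whose libraries divide 3 to 1 between the classes in each group, the medians hardly moved: -0.12 and -0.10 for the hypoxia list, and 0.01 and 0.14 for the megakaryocyte markers.

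**Figure D4:**
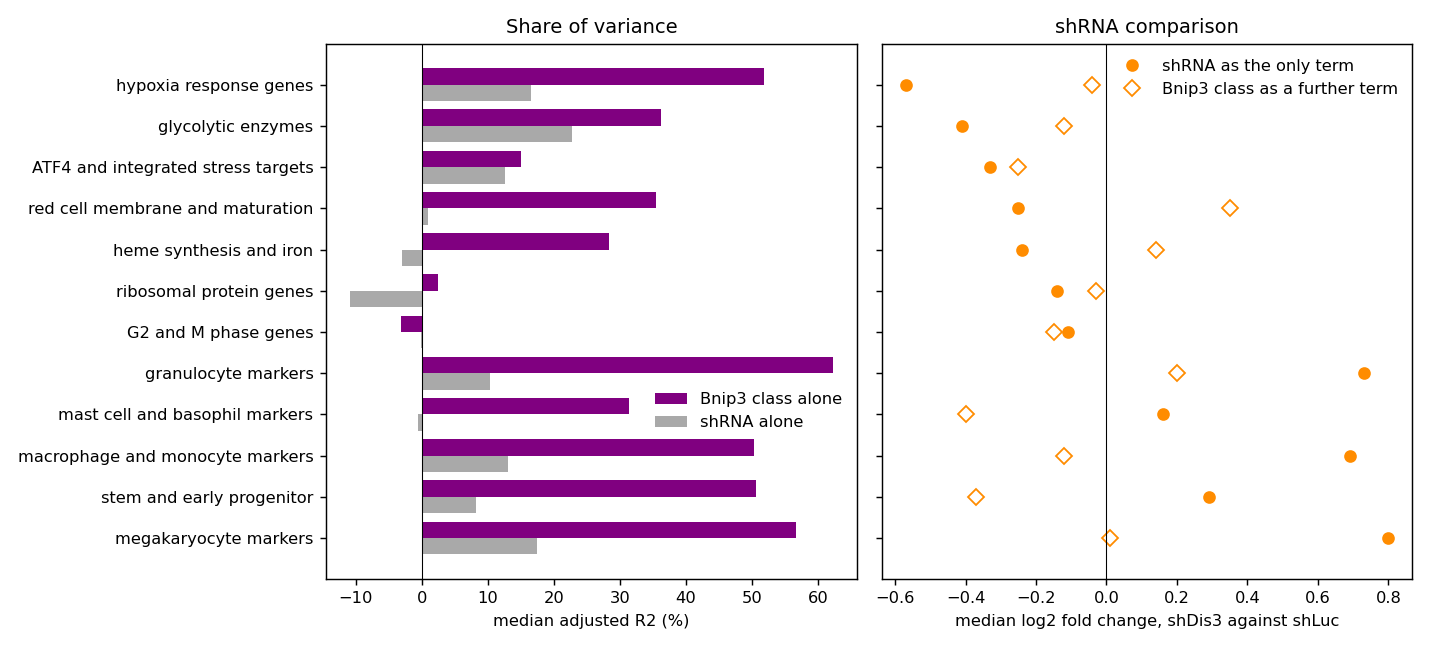
Left, median adjusted R2 (percent) of 12 gene lists for the Bnip3 class alone and the shRNA alone. Right, the median log2 fold change of the same lists between shDis3 and shLuc with the shRNA as the only term (filled) and with the Bnip3 class as a further term (open); the hypoxia list lies at -0.57 and -0.04 and the megakaryocyte list at 0.80 and 0.01.

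The high class has 3 shLuc and 3 shExosc10 libraries, and these were compared by themselves, a choice made after seeing the data. Of 16584 genes tested, edgeR called 8 (0.0482%), of which Exosc10 was lower in shExosc10 and the other 7 were higher: Rab1a, Serinc3, Cpeb4, Ms4a3, H2afy, Mtap and Ptpn11. Rab1a, a GTPase of transport from the endoplasmic reticulum to the Golgi, was at 85.0, 75.8 and 83.4 CPM in the high shExosc10 libraries and at 18.2, 17.8 and 18.6 CPM in the high shLuc ones. Its log2 fold change there was 2.16 ± 0.14 (SE, adjusted p = 4.92e-06 by edgeR). In the low class, Rab1a was at 59.8 CPM in shLuc replicate 4, at 104 CPM in shExosc10 replicate 1 and at 65.4 to 97.8 CPM in shDis3. The 3 high shLuc libraries were therefore below all 9 others, and the shLuc library of the low class was not. Over all 12 libraries the same gene had an adjusted p of 1.0 with the shRNA alone and of 0.0108 with the class as a term (edgeR). The class was cut on Bnip3 in these same libraries, and the comparison within the high class leaves out shLuc replicate 4. The p-values from that comparison and from the class term depend on this choice, and are no independent support for an effect of the shRNA.

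Serinc3, a membrane protein of the serine incorporator family, had the same distribution, at 234 to 250 CPM in the 3 high shLuc libraries and at 449 to 685 CPM in the other 9. Its log2 fold change within the high class was 1.23 ± 0.13 (SE, adjusted p = 0.00174 by edgeR). H2afy, which encodes the histone variant macroH2A1, differed by class and, within the high class, by shRNA: it was at 45.8 to 64.3 CPM in the high shLuc libraries, at 105 to 128 CPM in the high shExosc10 ones and at 170.5 to 324 CPM in the low class. In the low class alone, which has 1 shLuc and 1 shExosc10 library, edgeR called 1 of 20855 genes (0.0048%) in shDis3 against shLuc, 1 (0.0048%) in shExosc10 against shLuc and 2 (0.00959%) in shDis3 against shExosc10. The lone libraries are assumed in that fit to vary like the others.

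**Figure D5:**
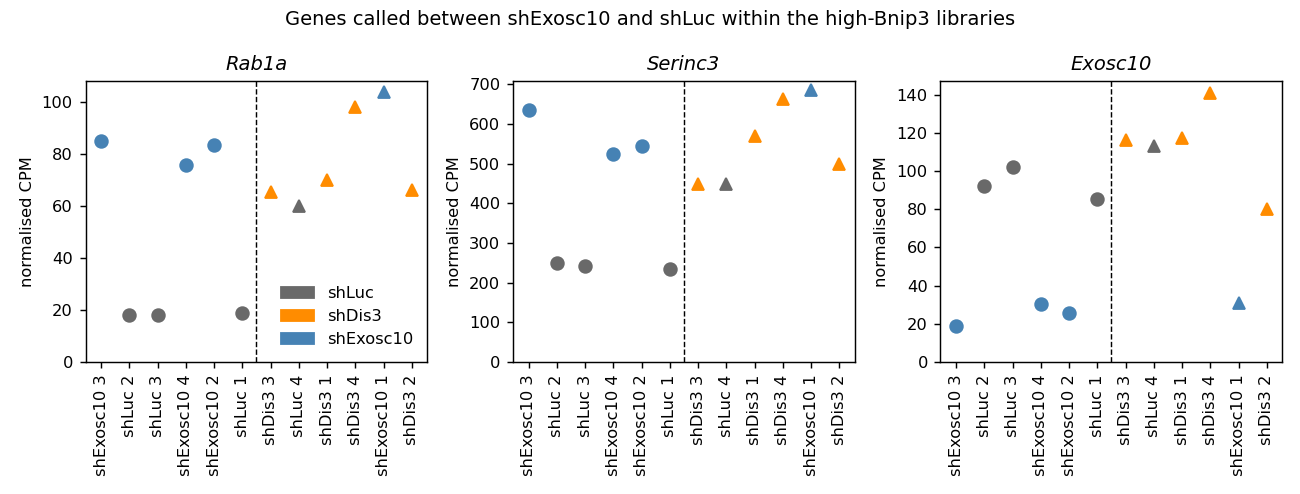
Normalised CPM (vertical axis, from 0) of Rab1a, Serinc3 and Exosc10 in each library, ordered by Bnip3; circles are high-Bnip3 and triangles low-Bnip3 libraries, coloured by shRNA, and the dashed line divides the classes. The 3 high shLuc libraries lie at 17.8 to 18.6 CPM for Rab1a and at 234 to 250 CPM for Serinc3, below the other 9, while Exosc10 is low in the 4 shExosc10 libraries of both classes.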

How the data were processed

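RNA of 12 libraries, 4 for each of 3 shRNAs, was extracted with Trizol and made into libraries with a stranded kit for small amounts of total RNA, per the labels' protocols. Build GRCm38 (mm10) and the tools RSEM 1.3.0 and STAR 2.5.3a are named in the submitters' processing notes. No source used here gives the annotation release or strand setting, so genes that overlap or have near-identical copies are uncertain. Per the file headers, the authors deposited an RSEM expected count, an estimated number of reads, for each gene, with 4.55% of values not whole. The deposited tables also hold TPM, the authors' length-corrected level, which ranked the libraries here. Symbols and coordinates came from GENCODE M21, which matched 55144 of 55385 identifiers without their version.

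Expected counts were rounded, filtered by edgeR's default and scaled by TMM, leaving 17650 genes. Class differences are those of mean log2 CPM with a prior count of 2. The shRNA groups were compared with edgeR 4.0.16 (R 4.3.3; quasi-likelihood test, all 12 libraries, Benjamini-Hochberg adjustment over all genes), with DESeq2 1.42.0 and limma 3.58.1 on log2(TPM + 1) as alternatives. The standard error is the log2 fold change over the square root of F. Both scripts were tested on simulated data. The counts simulated for edgeR varied less than these libraries, whose biological coefficient of variation in the shRNA fit was 60.0%. That test therefore does not show how large a change could be detected here. Precision is limited by 14936178 to 32397192 counts per library and by 4 libraries per shRNA, and no pair of libraries agreed within sampling noise. Other alternatives were scalings, filters, fold minimums, ranking genes, class sizes, a replicate block and leaving out each library.

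The classes, the gene lists and the tests were chosen with earlier results of these data known. Genes named were the 3 markers, both targets, the 15 separating genes of at least 5 CPM with the largest differences each way, up to 4 members of each list (the 2 largest differences and the 2 most abundant) and any member of the hypoxia and glycolysis lists. Cell type defining genes in the label check and genes called within the high class were added after their values were seen. Some genes that meet this rule are not reported here.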

Additional observations from a re-analysis of the deposited data

Results flagged for a closer look

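Of 66 sets of values examined (list scores and marker levels within each class of 6 libraries, and the targeted genes within each shRNA), 6 had a library far from the others of its set by Dixon's criterion, which chance meets in about 1 in 20 sets. In the high class, shLuc replicate 1 had a score of -0.10 for red cell genes, beside 0.30 to 0.51 in the others, and of -1.10 for interferon-stimulated genes, beside 0.12 to 0.65. Within the same class shExosc10 replicate 2 was at -0.24 for stem and early progenitor genes, beside -0.68 to -0.52. The score of shExosc10 replicate 4 for G2 and M phase genes was -0.07, beside 0.03 to 0.08. In the low class, shDis3 replicate 2 was at 1.51 for lymphoid markers, beside -0.61 to 0.17, and at 1.0 for endothelial and stromal markers, beside -0.26 to 0.17. This is the library with the fewest counts and the highest olfactory receptor sum.

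For 5 of 27 lists, all 3 high libraries differed from the 1 low library one way in shLuc and the other way in shExosc10. The mean score differences, high minus low, were 0.74 in shLuc and -0.38 in shExosc10 for ribosomal protein genes, and 0.39 and -0.38 for nuclear-encoded oxidative phosphorylation. They were -0.38 and 0.17 for immediate early and heat shock genes, -0.34 and 0.08 for endothelial and stromal markers, and 0.10 and -0.17 for G2 and M phase genes. Each rests on 1 low library per shRNA, shLuc replicate 4 and shExosc10 replicate 1, and the difference was not tested.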

How the results depend on the processing

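With log2(TPM + 1) in place of TMM-scaled CPM, the median of genes of at least 5 CPM moved from -0.04 to -0.33, and 34 genes separated the classes upward. Under that scaling the list medians were 0.35 for hypoxia, 0.08 for glycolysis, -0.38 for autophagy, 0.01 for cholesterol synthesis, 0.01 for ATF4 targets, 0.11 for heme and iron, 0.17 for red cell genes, -0.71 for macrophage markers, -0.07 for hepatocyte markers, -0.35 for S phase, -0.58 for ribosome biogenesis and 0.09 for olfactory genes. With TMM, the medians were -0.0 for autophagy, 0.33 for cholesterol synthesis and -0.41 for hepatocyte markers. They were -0.3 for ribosome biogenesis and 1.5 for olfactory genes. On log2(TPM + 1), signs reversed with a shift above the spread between libraries for oxidative phosphorylation (-0.27), G2 and M phase (-0.29), exosome subunits (-0.31) and erythropoietin response (-0.28). With a shift within that spread, signs changed for ribosomal protein genes (0.19 to -0.11), mitochondrially encoded mRNAs (0.17 to -0.15) and interferon-stimulated genes (0.28 to -0.09). Of the named genes, signs reversed there with a shift above the spread for Insig2 (-0.25), Arnt (-0.06), Mtrex (-0.30), Top2a (-0.21), Stat5b (-0.32), Hsp90aa1 (-0.34), Mxi1 (-0.25), Eprs (-0.27), Gars (-0.12), Gpi1 (-0.07), mt-Co1 (-0.31) and mt-Cytb (-0.15). Relative to the median of genes of at least 5 CPM, the hypoxia list was at 0.68 with TMM and 0.69 with TPM, and the megakaryocyte list at -1.21 and -0.76.

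Genes that separated the classes numbered 274 upward at 1.5-fold, 37 upward and 71 downward at 4-fold, 102 and 277 over genes of at least 5 CPM, and 303 upward for the 4 highest against the 4 lowest libraries. That narrower choice gave medians of -0.73 for stem, -1.07 for macrophage and -1.13 for hepatocyte markers. Leaving out each library in turn gave 162 to 1004 upward and 460 to 533 downward genes. Stem medians then ran from -1.22 to -0.81 and hepatocyte medians from -1.04 (without shExosc10 replicate 2) to -0.01 (without shLuc replicate 3). Of 3591 recomputed values of 189 named genes, 3492 moved by less than the spread between libraries.

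For shDis3 against shLuc, shExosc10 against shLuc and shDis3 against shExosc10, calls numbered 0, 1 and 2 as reported, 1, 2 and 1 with the class term, 33, 8 and 72 by DESeq2, 0, 0 and 0 by limma on log2(TPM + 1), and 123, 10 and 179 without the filter. With each library left out they ran from 0 to 146, 0 to 2 and 1 to 2. The lone shExosc10 call was lost without shExosc10 replicate 2 or 3. The high libraries alone gave 8 for shExosc10 against shLuc, and the low libraries alone gave 1, 1 and 2, where shLuc and shExosc10 have 1 library each, assumed to vary like the others. The fits of 1 class and the 5 CPM filter were chosen after seeing the data. With a replicate block, calls numbered 0, 1 and 1. Deviations of same-numbered libraries from their shRNA means correlated at -0.47 to 0.773. The values were positive for every pair of number 1 or 2, and of both signs for the rest. These deviations also hold the class difference within shLuc and shExosc10. The check therefore cannot tell whether the replicate numbers pair the libraries. Over all genes the median adjusted R2 was 8.77% for the class and -5.55% for the shRNA with DESeq2 size factors, and 5.84% and -9.21% with log2(TPM + 1). The causes of these changes were not tested. What depth limits was not tested.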
